A study of Mus musculus with 10 samples.

Results

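Mitochondrial protein import and the organization of the cristae, the folds of the inner mitochondrial membrane, were examined in mouse ileum by a family of genes chosen by symbol. The rule took every symbol of the deposited table that starts with Timm, Tomm or Chchd, and Samm50, Immt, Mtx1, Mtx2, Pmpca, Pmpcb, Grpel1, Grpel2, Dnajc19 and Gfer. It took in 37 of 18138 symbols and 49 of 25697 probes. Oxa1l, also named by the rule, was not analysed here. Expression in the ileum, the last stretch of the small intestine, was compared between wild-type mice and mice with the label iPGC-1β, 5 arrays of each. All were FVB/N mice of 3 to 4 months, and the series describes the wild-type mice as littermates. PGC-1β, encoded by Ppargc1b, is a transcriptional coactivator of mitochondrial genes. Mice of this name are known to carry it as a transgene in the intestinal epithelium, under the villin promoter, though the labels do not spell this out. Sex, litter, pooling and slide are not stated in the sources used here.

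Nearly all mitochondrial proteins are made in the cytosol and imported. They cross the outer membrane through the TOM complex, and the SAM complex inserts barrel-shaped proteins there. From the intermembrane space, small TIM chaperones pass carrier proteins on to the inner membrane, while the MIA40 relay holds back small proteins by disulfide bonds. Proteins with a presequence cross the inner membrane through TIM23, are pulled in by a motor around the mitochondrial HSP70 and lose the presequence to the processing peptidase of the matrix. MICOS shapes the junctions at which cristae meet the inner boundary membrane, and it is bridged to SAM in the outer membrane. The ileal epithelium has many mitochondria, which supply the energy for absorption.

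A probe entered the test where it lay above background (a detection p under 0.05) on at least 5 of the 10 arrays. This held for 28 of the 37 genes. The other 9 were Samm50, Tomm40, Timm13, Timm8a2, Timm17b, Timm22, Timm23, Chchd2 and Chchd3. Of these, Timm23 and Timm8a2 were above background on 0 arrays, and Timm22 on 0 wild-type and 3 iPGC-1β arrays. Whether these 9 genes differed was not tested. For the 28 genes, values are log2 intensities after background correction and quantile normalization, and a change is the iPGC-1β mean minus the wild-type mean. A gene was called where limma's adjusted p, over all 9365 genes tested, was under 0.05. Levels of different probes cannot be set against each other. The arrays had between 12370 and 12771 probes above background. Nothing in the labels says how far the samples of a group are independent, so a p-value reflects only how far these particular samples vary, which may be technical. Their number limits the precision.

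Of the 28 tested genes, 14 rose and 0 fell, and 14 were not called. At an unadjusted p under 0.05 limma gave 16 higher and 0 lower. Wild-type replicate 5 and iPGC-1β replicate 3 stood somewhat apart in cell type markers. Without both arrays 18 of the 28 rose and 0 fell, and 9.7% of all tested genes rose. With all 10 arrays 9.88% of all tested genes rose and 7.41% fell. The median change of the 28 was 0.54, against -0.053 over all tested genes, and 26 of the 28 changes were above 0. The 5 iPGC-1β arrays lay above the 5 wild-type arrays, with no overlap, for 15 of the 28, against 8.66% of all tested genes. By place, 4 of 6 tested genes rose in the inner membrane group, 4 of 6 in the intermembrane space, 2 of 6 in the outer membrane, 1 of 2 in matrix processing and 1 of 2 in MICOS. Of 6 further genes that the prefixes take in, 2 rose. Mtx2, counted among the 14, the 15 and the outer membrane genes that rose, was above background on 1 wild-type and 5 iPGC-1β arrays. It thus passed the filter through the group in which it was high. The median changes were 0.92 for the inner membrane, 0.91 for the intermembrane space and 0.47 for the outer membrane; whether the places differ was not tested. The rises were between 1.46-fold for Pmpcb and 2.45-fold for Chchd10.

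**Figure D1:**
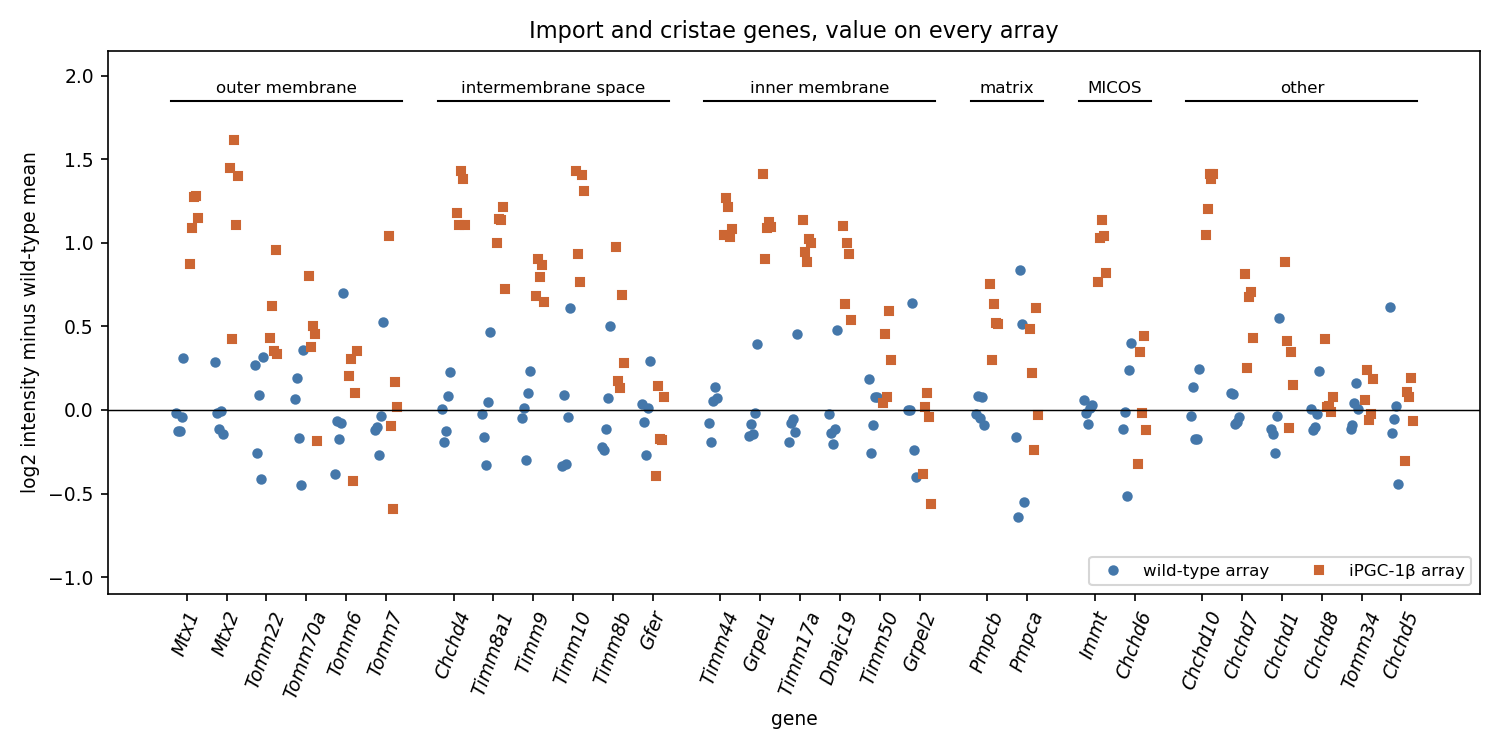
Each point is 1 array: the log2 intensity of a tested import or cristae gene minus its wild-type mean (vertical axis), for the genes grouped by place (horizontal axis), with circles for the 5 wild-type and squares for the 5 iPGC-1β arrays. The squares lie above all circles for 15 of the 28 genes, and mix with them for the rest.

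The arrays differed in more than these genes. In a tissue extract, fewer cells of a type and less RNA per cell cannot be told apart. Of 17 tested markers of absorptive enterocytes 7 were lower and 0 higher on the iPGC-1β arrays. Their mean lay between 11.49 and 12.23 on the wild-type arrays and between 11.10 and 11.69 on the iPGC-1β arrays, so it moved opposite to the import genes. The enterocyte genes Fabp1 and Fabp2 did not pass the filter. Of 3 tested markers of the ileum 2 were lower on the iPGC-1β arrays, with a median change of -0.81. They were Fgf15, the hormone gene induced by bile acids (change -1.79, limma's adjusted p = 0.00587), and Ostb, a gene of bile acid export (change -0.81, limma's adjusted p = 0.0348). Fabp6, an ileal bile acid binding gene, was not called (14.55 and 14.64, group means of wild-type and iPGC-1β), and Slc10a2 did not pass the filter. Wild-type replicate 5 had the lowest enterocyte mean of its group, 11.49, and the highest mean of the tested import and cristae genes, 9.15 against 8.85 to 8.93. It also had the highest T cell marker mean of the wild-type group, 8.43, while iPGC-1β replicate 3 had the lowest of all, 5.46. By limma, 0 of 6 tested T cell markers were called (1 lower at an unadjusted p under 0.05), as were 0 of 6 Paneth cell markers (1 lower). Of the B and plasma cell, smooth muscle and goblet markers 0 of 5, 0 of 9 and 0 of 5 were called, and 0 passed unadjusted. With the enterocyte mean as a covariate 11 of the 14 calls were kept, and 7.78% of all tested genes rose. That covariate takes up part of the group difference, since it differs between the groups, and its part in the results was not otherwise tested. The tested Ppargc1b probe read lower, not higher, on the iPGC-1β arrays (7.70 ± 0.41 against 8.32 ± 0.22, SD, n = 5 each). Its change was -0.61 (limma's adjusted p = 0.0452), and the groups overlapped. Where the probe lies was not given, so it does not check the labels.

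**Figure D2:**
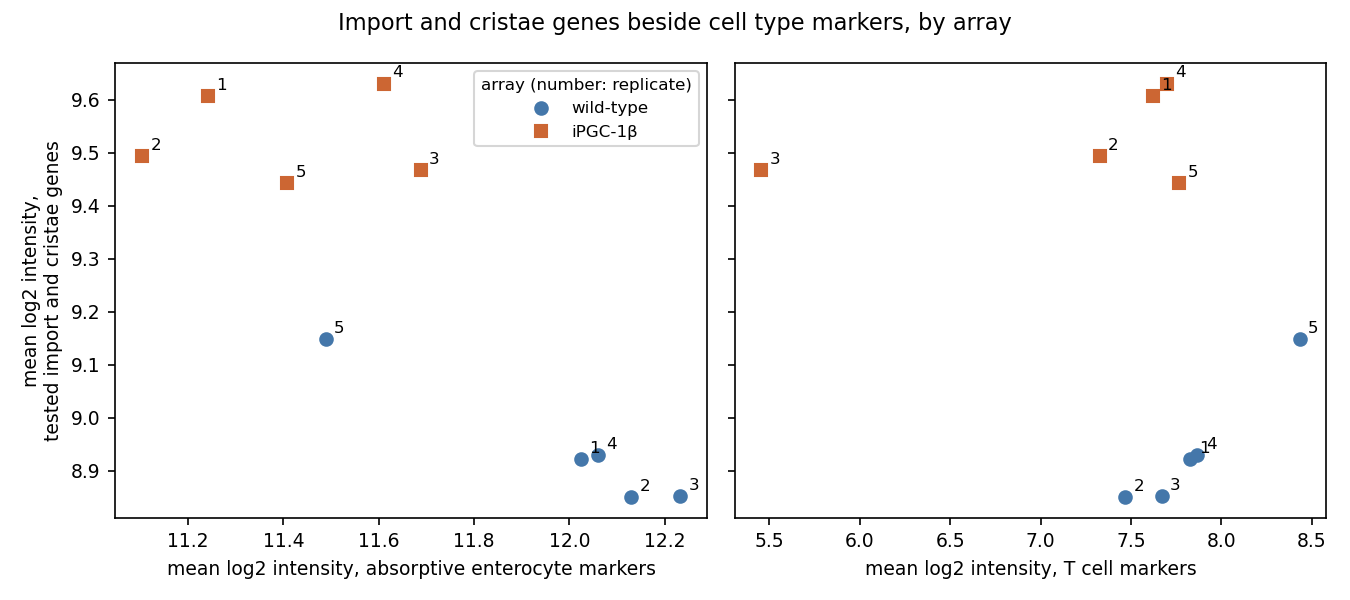
Each point is 1 array, numbered by replicate: the mean log2 intensity of the 28 tested import and cristae genes (vertical axis) beside the mean of 17 enterocyte markers (left) or 6 T cell markers (right). All iPGC-1β arrays (squares) lie at 9.44 or above on the vertical axis and all wild-type arrays (circles) at 9.15 or below; wild-type replicate 5 stands apart from its group in both panels.

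In the outer membrane, both metaxin genes rose. Metaxins work with SAMM50 in the insertion of barrel proteins and belong to the bridge between that complex and MICOS. Wild-type replicates 1 to 5 read 10.54, 10.43, 10.43, 10.52 and 10.87 for Mtx1 (log2 intensity), and the iPGC-1β replicates 11.43, 11.65, 11.83, 11.84 and 11.70. All iPGC-1β arrays were above all wild-type arrays by at least 0.57 on the log2 scale. Mtx1 rose 2.19-fold (log2 change 1.13 ± 0.13, SE, n = 5 per group, limma's adjusted p = 0.000121). Its other 2 probes changed by 1.29 and 1.13, and both passed the test over all kept probes. Mtx2 read 5.33, 5.02, 4.92, 5.03 and 4.89 (log2 intensity) on the 5 wild-type arrays in order of replicate, and 6.49, 5.47, 6.65, 6.14 and 6.44 on the 5 iPGC-1β arrays. The groups did not overlap. Mtx2 was above background on 1 wild-type and 5 iPGC-1β arrays, so it passed the filter through the group in which it was high, and the size of its rise is uncertain. Mtx2 rose (log2 change 1.20 ± 0.20, SE, n = 5 per group, limma's adjusted p = 0.00148), but by 0.41 on the log2 scale without background correction (adjusted p = 0.00619).

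Of the TOM genes with a tested probe, 0 of 4 were called by limma, and 1, Tomm22, had an unadjusted p under 0.05. Over all tested genes 9.88% rose and 7.41% fell, so 0 of 4 does not set the TOM genes apart. Tomm22 encodes the receptor that binds presequence proteins at the mouth of the TOM pore. For Tomm22, the wild-type arrays gave log2 intensities of 7.44, 6.92, 7.26, 6.76 and 7.49, and the iPGC-1β arrays 7.61, 7.80, 7.53, 8.13 and 7.51, each in order of replicate. The groups did not overlap, by a narrow gap. The difference between the group means missed the threshold (log2 change 0.54 ± 0.18, SE, n = 5 per group, limma's adjusted p = 0.0539). Tomm22 passed under 9 of 24 alternatives, among them without wild-type replicate 5 (adjusted p = 0.0333), with adjusted p between 0.0251 and 0.392 over all of them. For Tomm70a, the receptor gene for carrier proteins, the log2 change was 0.39, with a 95% interval from -0.037 to 0.82. For the small TOM subunit genes Tomm6 and Tomm7 it was 0.11 each, with intervals from -0.35 to 0.56 and from -0.45 to 0.66. Tomm7 spread widely on the iPGC-1β arrays (SD 0.59, n = 5), from 9.98 to 11.62.

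In the intermembrane space the relay gene and 3 of the 4 tested small TIM genes rose. Chchd4 encodes MIA40, the oxidoreductase that forms disulfide bonds in incoming small proteins. The log2 intensity of Chchd4 was 8.92, 8.72, 8.78, 9.00 and 9.14 on wild-type replicates 1 to 5, and 10.09, 10.02, 10.34, 10.29 and 10.02 on iPGC-1β replicates 1 to 5. The lowest iPGC-1β array was 0.88 above the highest wild-type array. Chchd4 rose 2.37-fold (log2 change 1.24 ± 0.13, SE, n = 5 per group, limma's adjusted p = 5.15e-05). Gfer encodes the sulfhydryl oxidase that takes up electrons from MIA40 and so keeps it active. Wild-type replicates 1 to 5 read 10.78, 10.67, 10.47, 10.75 and 11.03 for Gfer (log2 intensity), and the iPGC-1β replicates 10.34, 10.89, 10.57, 10.56 and 10.82. The groups overlapped, and Gfer was not called (change -0.11 ± 0.15, SE, n = 5 per group, limma's adjusted p = 0.665, 95% interval from -0.42 to 0.21). The difference between the changes of these partners, Chchd4 minus Gfer, was 1.35 ± 0.15 (SE, n = 5 per group), with the groups apart (two-sided exact permutation p = 0.00794, which is the lowest possible with 5 arrays a group, and 0.0238 adjusted over 6 pairs).

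Small TIM proteins form ring-shaped chaperones, TIM9 with TIM10 and TIM8 with TIM13. Timm8a1 read 9.84, 9.71, 9.54, 9.92 and 10.34 (log2 intensity) on the 5 wild-type arrays in order of replicate, and 10.87, 11.01, 11.00, 11.08 and 10.59 on the 5 iPGC-1β arrays. The groups did not overlap. Timm8a1 rose 2.06-fold (log2 change 1.04 ± 0.16, SE, n = 5 per group, limma's adjusted p = 0.000811). For Timm8b, the wild-type arrays gave log2 intensities of 10.83, 10.81, 10.94, 11.12 and 11.55, and the iPGC-1β arrays 12.03, 11.23, 11.18, 11.74 and 11.33, each in order of replicate. Wild-type replicate 5 lay above 3 of the iPGC-1β arrays, and Timm8b was not called (change 0.45 ± 0.20, SE, n = 5 per group, limma's adjusted p = 0.139). The 95% interval of its change ran from 0.024 to 0.88. Timm8b passed under 4 of 24 alternatives, with limma's adjusted p between 0.0285 and 0.871 over all of them. The change of its second probe was 0.45 as well. The difference between the changes, Timm8a1 minus Timm8b, was 0.59 ± 0.19 (SE, n = 5 per group, two-sided exact permutation p = 0.0238, adjusted 0.0476). This call was lost without any 1 of wild-type replicates 2 to 5 or iPGC-1β replicates 2 and 3 (adjusted p between 0.0635 and 0.0952). It was also lost with the mean of all kept probes (exact permutation, adjusted p = 0.0635). The same held without a filter, where more pairs enter the adjustment (0.0524), and without both wild-type replicate 5 and iPGC-1β replicate 3 (0.129).

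The log2 intensity of Timm9 was 10.11, 10.17, 9.86, 10.26 and 10.40 on wild-type replicates 1 to 5, and 10.84, 11.06, 10.95, 11.03 and 10.80 on iPGC-1β replicates 1 to 5. Every iPGC-1β array was above every wild-type array. Timm9 rose 1.71-fold (log2 change 0.78 ± 0.13, SE, n = 5 per group, limma's adjusted p = 0.00137), and 2 further kept probes changed by 0.58 and 1.09. Timm10 rose 2.25-fold (log2 change 1.17 ± 0.20, SE, n = 5 per group, limma's adjusted p = 0.0016). With the enterocyte covariate the changes of Timm9 and Timm10 were 0.59 (adjusted p = 0.0575) and 0.75 (adjusted p = 0.0935), so both calls were lost. The difference between the changes, Timm9 minus Timm10, was -0.39 ± 0.20 (SE, n = 5 per group), which did not pass (two-sided exact permutation p = 0.0873, adjusted 0.131).

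In the inner membrane and its import motor 4 of 6 tested genes rose. TIM44 tethers the mitochondrial HSP70 to the exit of the TIM23 channel. Wild-type replicates 1 to 5 read 8.47, 8.36, 8.61, 8.69 and 8.63 for Timm44 (log2 intensity), and the iPGC-1β replicates 9.60, 9.82, 9.77, 9.59 and 9.63. The groups stood apart by 0.90, and Timm44 rose 2.19-fold (log2 change 1.13 ± 0.12, SE, n = 5 per group, limma's adjusted p = 5.15e-05). Its other 2 probes changed by 1.26 and 1.06. TIM17A is a core part of the TIM23 translocase. Timm17a read 10.54, 10.66, 10.68, 10.60 and 11.19 (log2 intensity) on the 5 wild-type arrays in order of replicate, and 11.87, 11.68, 11.62, 11.76 and 11.73 on the 5 iPGC-1β arrays. Wild-type replicate 5 was the highest of its group but below all iPGC-1β arrays. Timm17a rose 2.00-fold (log2 change 1.00 ± 0.14, SE, n = 5 per group, limma's adjusted p = 0.000409). Dnajc19, the gene of a J-domain protein related to the co-chaperone of the motor, rose 1.79-fold (log2 change 0.84 ± 0.17, SE, n = 5 per group, limma's adjusted p = 0.00376). That call was lost with the enterocyte covariate (change 0.61, adjusted p = 0.120). The changes of its 2 other probes were 1.41, which passed, and 0.39, which did not. Timm50, the gene of the receptor of TIM23, was not called (change 0.29 ± 0.15, SE, n = 5 per group, limma's adjusted p = 0.191, 95% interval from -0.022 to 0.61).

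The genes of the nucleotide exchange factors of the mitochondrial HSP70 differed in their changes. GRPEL1 and GRPEL2 are the mammalian relatives of bacterial GrpE. For Grpel1, the wild-type arrays gave log2 intensities of 9.67, 9.74, 9.68, 9.81 and 10.22, and the iPGC-1β arrays 11.24, 10.73, 10.91, 10.95 and 10.92, each in order of replicate. The groups did not overlap, and wild-type replicate 5 was again the highest of its group. Grpel1 rose 2.18-fold (log2 change 1.13 ± 0.15, SE, n = 5 per group, limma's adjusted p = 0.00022). The log2 intensity of Grpel2 was 6.29, 6.29, 6.93, 6.05 and 5.89 on wild-type replicates 1 to 5, and 5.90, 6.31, 6.39, 6.25 and 5.73 on iPGC-1β replicates 1 to 5. The groups overlapped widely, and Grpel2 was not called (change -0.17 ± 0.20, SE, n = 5 per group, limma's adjusted p = 0.596, 95% interval from -0.61 to 0.26). The difference between the changes, Grpel1 minus Grpel2, was 1.30 ± 0.32 (SE, n = 5 per group), with the groups apart (two-sided exact permutation p = 0.00794, adjusted 0.0238).

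**Figure D3:**
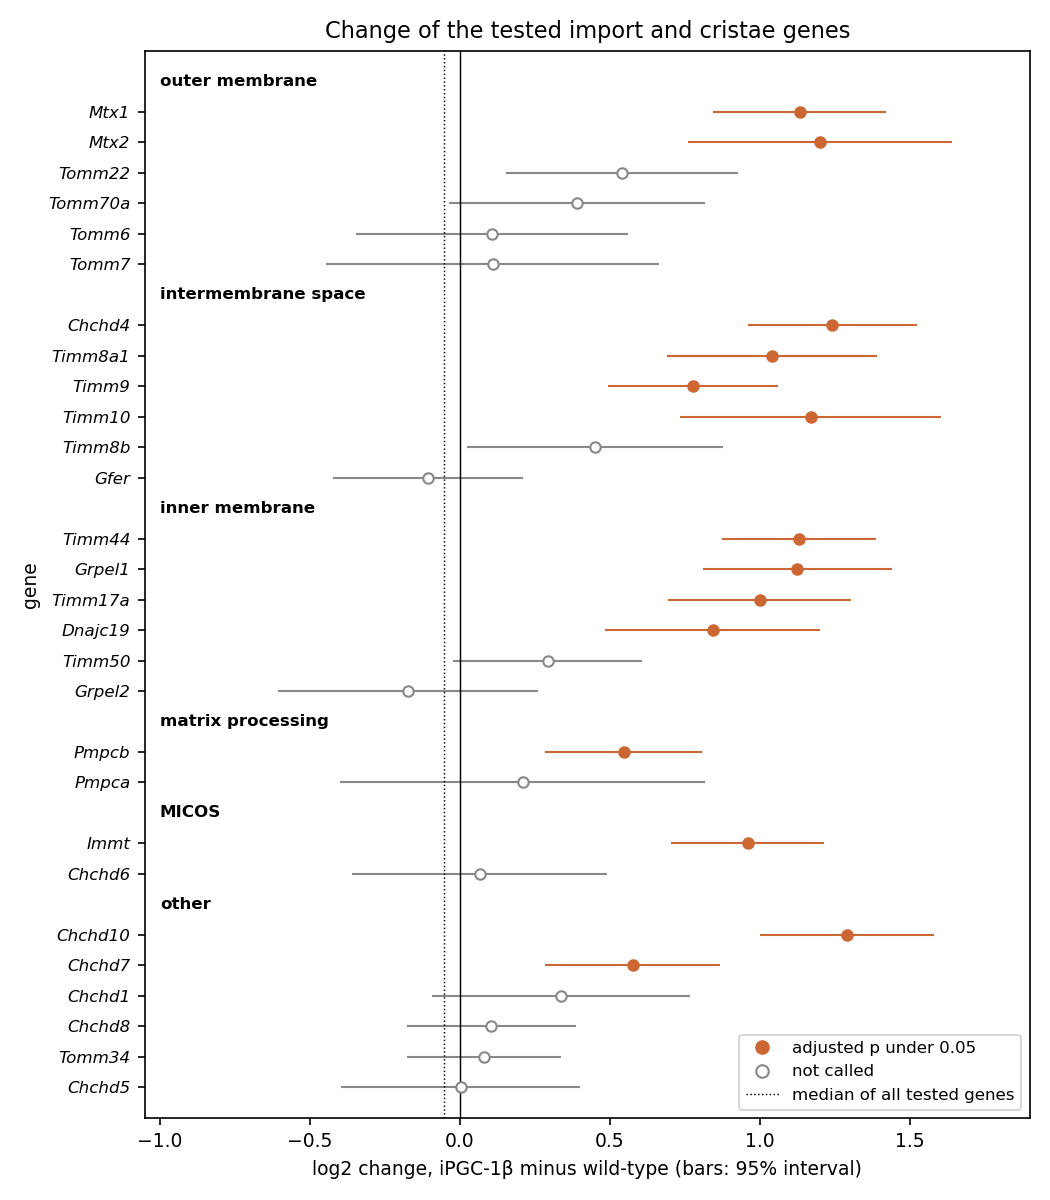
Points give the log2 change, iPGC-1β minus wild-type, of each tested gene (horizontal axis) with its 95% interval from limma, by place; filled points passed the test. The filled points lie between 0.55 and 1.29, and the dotted line marks the median of all tested genes at -0.053.

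The processing peptidase of the matrix consists of an alpha subunit, PMPCA, which binds presequences, and a beta subunit, PMPCB, which cuts them. Wild-type replicates 1 to 5 read 7.88, 7.98, 7.85, 7.97 and 7.80 for Pmpcb (log2 intensity), and the iPGC-1β replicates 8.65, 8.20, 8.53, 8.42 and 8.41. The groups did not overlap, and Pmpcb rose 1.46-fold (log2 change 0.55 ± 0.12, SE, n = 5 per group, limma's adjusted p = 0.00816). Pmpca read 5.33, 4.85, 6.33, 6.01 and 4.95 (log2 intensity) on the 5 wild-type arrays in order of replicate, and 5.98, 5.72, 5.25, 6.10 and 5.46 on the 5 iPGC-1β arrays. Both groups spread widely. Pmpca, above background on 3 wild-type arrays, was not called (change 0.21 ± 0.28, SE, n = 5 per group, limma's adjusted p = 0.655, 95% interval from -0.40 to 0.82). The difference between the subunits' changes, Pmpca minus Pmpcb, was -0.34 ± 0.34 and did not pass (SE, n = 5 per group, two-sided exact permutation p = 0.365, adjusted 0.438). It passed, at the same size, without background correction and in the authors' processed values (exact permutation, adjusted p = 0.0381 in both).

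Of the MICOS genes, Immt encodes mitofilin (MIC60), the central organizer of cristae junctions. For Immt, the wild-type arrays gave log2 intensities of 11.24, 11.16, 11.10, 11.19 and 11.21, and the iPGC-1β arrays 11.95, 12.21, 12.32, 12.22 and 12.00, each in order of replicate. The wild-type arrays lay within a narrow band (SD 0.054, n = 5), below all iPGC-1β arrays. Immt rose 1.94-fold (log2 change 0.96 ± 0.12, SE, n = 5 per group, limma's adjusted p = 0.00016). Chchd6 encodes MIC25, a further subunit. The log2 intensity of Chchd6 was 6.16, 6.26, 5.75, 6.51 and 6.67 on wild-type replicates 1 to 5, and 5.95, 6.61, 6.25, 6.71 and 6.15 on iPGC-1β replicates 1 to 5. The groups overlapped, and Chchd6 was not called (change 0.066 ± 0.20, SE, n = 5 per group, limma's adjusted p = 0.849, 95% interval from -0.36 to 0.49). The third MICOS gene of the rule, Chchd3, was above background on 1 array of each group and was not tested.

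Other genes with the Chchd prefix encode small proteins with paired cysteines that mostly enter through MIA40. Wild-type replicates 1 to 5 read 12.74, 12.91, 12.60, 12.60 and 13.02 for Chchd10 (log2 intensity), and the iPGC-1β replicates 13.82, 13.98, 14.18, 14.16 and 14.18. The groups stood apart by 0.80. Chchd10, whose protein lies in the intermembrane space near cristae junctions, had the largest rise of the 28 tested genes, 2.45-fold (log2 change 1.29 ± 0.13, SE, n = 5 per group, limma's adjusted p = 5.15e-05). Chchd7 read 10.57, 10.57, 10.39, 10.40 and 10.43 (log2 intensity) on the 5 wild-type arrays in order of replicate, and 11.29, 10.73, 11.15, 11.18 and 10.90 on the 5 iPGC-1β arrays. The groups did not overlap, and Chchd7 rose 1.49-fold (log2 change 0.58 ± 0.13, SE, n = 5 per group, limma's adjusted p = 0.0107). For Chchd1, the wild-type arrays gave log2 intensities of 11.33, 11.30, 11.18, 11.41 and 12.00, and the iPGC-1β arrays 12.33, 11.86, 11.34, 11.79 and 11.59, each in order of replicate. The groups overlapped. Chchd1, the gene of a mitochondrial ribosomal protein, was not called (change 0.34 ± 0.20, SE, n = 5 per group, limma's adjusted p = 0.273), and its change was -0.27, also not called, with the enterocyte covariate. The log2 changes of Chchd8 (now Coa4, of cytochrome oxidase assembly), of Chchd5 and of Tomm34, which encodes a cytosolic co-chaperone, were 0.11, 0.0021 and 0.080. By limma 0 of these 3 were called, and 0 had an unadjusted p under 0.05.

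**Figure D4:**
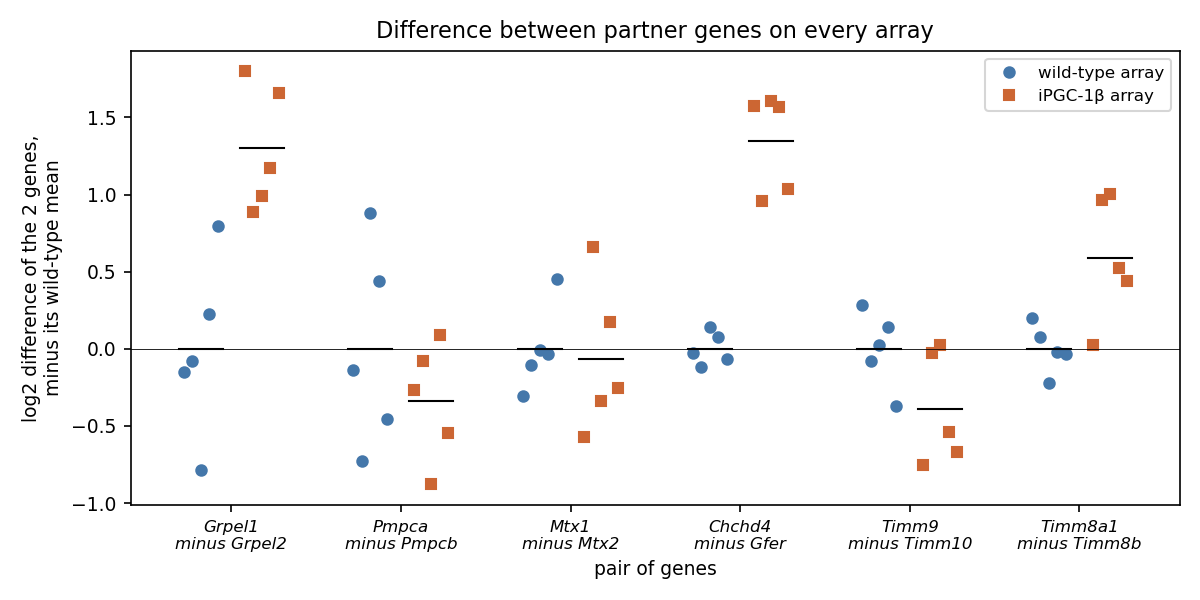
Each point is 1 array: the log2 difference between the genes of a pair, minus the wild-type mean of that difference (vertical axis), for 6 pairs of paralogs or partners; black lines are group means. The iPGC-1β arrays lie above all wild-type arrays for Grpel1 minus Grpel2 and for Chchd4 minus Gfer, and the groups overlap for the other 4 pairs.

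Of 13 pairs of paralogs or partners, 6 had both genes tested. The pairs were chosen with earlier results of these data known. The p-values of all 6, here and above, do not allow for that choice. The difference of changes passed for the 3 pairs already given. For the metaxins it was -0.067 ± 0.25 (SE, n = 5 per group, two-sided exact permutation p = 0.762, adjusted 0.762). Without background correction it was 0.67, and in the authors' processed values 0.66, and both passed (exact permutation, adjusted p = 0.0317). The value of the metaxin pair thus depends on the background correction, and Mtx2 was above background on 1 wild-type array only.

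A list of 28 further genes of import and cristae, named by current symbols, gave 23 that have a probe and lie outside the rule, of which 17 were tested. Of these 17, 9 rose and 0 fell by limma (0 lower at an unadjusted p under 0.05), against 9.88% and 7.41% of all tested genes. The median change of the 17 was 0.603, against -0.053 over all tested genes. This list was chosen with earlier results of these data known, so its counts are no independent check. The log2 intensity of Opa1 was 5.18, 4.77, 4.89, 5.28 and 5.26 on wild-type replicates 1 to 5, and 6.08, 5.81, 6.31, 6.18 and 6.18 on iPGC-1β replicates 1 to 5. Opa1, the gene of the inner membrane fusion protein that also narrows cristae junctions, rose 2.05-fold with no overlap (limma's adjusted p = 0.000416). It was above background on 3 wild-type and 5 iPGC-1β arrays, so it met the filter through the group in which it was high. Without background correction its change was 0.34, and it was called too. Wild-type replicates 1 to 5 read 10.21, 10.09, 10.06, 10.06 and 10.13 for Letm1 (log2 intensity), and the iPGC-1β replicates 10.83, 10.85, 11.14, 11.08 and 10.77. Letm1, an inner membrane ion exchange gene, rose 1.77-fold with no overlap (limma's adjusted p = 0.000523). Dnajc15 read 9.67, 9.48, 9.44, 9.73 and 10.49 (log2 intensity) on the 5 wild-type arrays in order of replicate, and 11.65, 10.79, 10.93, 11.20 and 10.93 on the 5 iPGC-1β arrays. Dnajc15, related to Dnajc19, rose 2.53-fold with no overlap (limma's adjusted p = 0.00113). For Hspa9, the wild-type arrays gave log2 intensities of 12.43, 12.33, 11.99, 12.38 and 12.37, and the iPGC-1β arrays 12.90, 13.40, 13.35, 13.13 and 12.89, each in order of replicate. Hspa9, the mitochondrial HSP70 gene at the heart of the motor, rose 1.78-fold with no overlap (limma's adjusted p = 0.00191). The others that rose were Phb2, Mipep, Timm10b (Fxc1 on the array), Timm21 (1700034H14Rik) and the MICOS gene Micos13 (2410015M20Rik). With the enterocyte covariate 4 of the 9 calls were kept, those of Opa1, Letm1, Hspa9 and Phb2. In that setting 7.78% of all tested genes rose.

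Promoter sequences were set beside the calls, as a description chosen after the calls were known. Windows of 300 bases, from 250 before to 50 after the start, were found for 33 of the 37 genes in RefSeq's GRCm38.p6 table, among them 13 of the 14 that rose and 12 of the 14 not called. On both strands, 4 sets of letters were searched: TNAAGGTCA, the element of the estrogen-related receptors, known partners of PGC-1 coactivators; GCGCANGCG, within the NRF1 site; CCGGAAG, a core of ETS sites such as that of GABP; and AAGATGGCG, of YY1. There were 0 overlaps between matches of different letters in these windows. CCGGAAG stood in the windows of 6 of the 13 genes that rose and of 7 of the 12 not called, against 8.86% of all 32851 windows and 11.6% of those of protein-coding genes. The estrogen-related receptor letters stood in 0 of the 13 and in 1 of the 12, against 1.28% of all windows and 1.03% of protein-coding ones. The NRF1 letters stood in 2 and 1, against 6.25% and 8.58%. The YY1 letters stood in 1 and 1, against 1.40% and 1.83%. The counts are of genes with a match in any of their windows, while the shares are of windows. A match is letters in a window and shows no binding, and a window without one says nothing of the factor.

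These stretches lie before the start (GRCm38.p6, from RefSeq), read 5′ to 3′ on the gene's strand, with the matched letters in capitals on whichever strand matched. Those of Immt, Mtx2 and Pmpcb are from genes that rose and those of Tomm70a and Pmpca from genes not called, all with the ETS letters, to show that both hold them. Chchd4 shows the NRF1 letters of a gene that rose, and Timm8b, not called, the only match to the receptor element.
Immt, chr6:71831171-71831237, plus strand: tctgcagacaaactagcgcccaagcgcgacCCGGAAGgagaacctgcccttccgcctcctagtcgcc
Mtx2, chr2:74825757-74825811, plus strand: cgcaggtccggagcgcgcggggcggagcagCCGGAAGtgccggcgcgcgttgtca
Pmpcb, chr5:21737114-21737159, plus strand: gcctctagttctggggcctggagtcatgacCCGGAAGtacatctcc
Tomm70a, chr16:57121604-57121670, plus strand: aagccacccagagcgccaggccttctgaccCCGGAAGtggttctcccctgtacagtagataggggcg
Pmpca, chr2:26389265-26389331, plus strand: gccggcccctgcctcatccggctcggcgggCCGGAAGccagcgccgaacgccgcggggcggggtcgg
Chchd4, chr6:91473580-91473648, minus strand: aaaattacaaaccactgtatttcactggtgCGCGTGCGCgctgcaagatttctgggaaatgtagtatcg
Timm8b, chr9:50603775-50603843, plus strand: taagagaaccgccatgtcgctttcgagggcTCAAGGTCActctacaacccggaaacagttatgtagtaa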

How the data were processed

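Total RNA of mouse ileum was hybridized to Illumina bead arrays, 5 wild-type and 5 iPGC-1β samples, and scanned data were exported with GenomeStudio, per the submitters' processing notes. The deposited table holds each probe's average signal (a linear intensity, not normalized) and a detection p-value, per the file headers. The authors' processed values are deposited as linear intensities too. The sources used here do not give their normalization.

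From the deposited intensities, limma 3.58.1 (R 4.3.3) corrected the background (normexp, with negative controls inferred from the detection p-values, offset 16), normalized by quantiles and took log2. Of 25697 probes, 12349 passed a detection p under 0.05 on at least 5 of 10 arrays. Each symbol was represented by its kept probe with the highest mean, which left 9365 genes. lmFit and eBayes compared the groups without covariates, with Benjamini-Hochberg adjustment over all 9365 genes and a threshold of 0.05. Differences between paired genes were tested by exact permutation over 252 relabelings. The fitting was tested on simulated data with noise drawn independently for each gene, which holds no shift of a whole array. Current symbols and promoters came from RefSeq's GRCm38.p6 tables: 36 of the 37 symbols matched a current symbol and 1 a synonym.

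Genes with values on every array are the 3 with the smallest p in each location group, and those in a pair whose difference passed. Of the other import genes the 4 with the smallest p are named with values. Genes, lists, pairs and markers were chosen with earlier results of these data known. Alternatives changed background correction, normalization, source of values, filter, probe choice, threshold, variance model, array weights, covariates and arrays. Replicate numbers follow accession order and pair nothing. No slide is named in the headers, so batches were not examined. Correlations between arrays were 0.962 to 0.987 within wild-type, 0.959 to 0.982 within iPGC-1β and 0.923 to 0.969 across, with 0 identical pairs.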

Additional observations from a re-analysis of the deposited data

Results flagged for a closer look

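A value was singled out where the highest or lowest of a group's 5 arrays lay far from the nearest other, relative to the range of the group (Dixon's ratio above 0.71). Chance gives this in about 5% of groups. Wild-type replicate 5 was the high array for 5 genes. It read 10.22 for Grpel1 (others 9.67 to 9.81), 11.19 for Timm17a (others 10.54 to 10.68) and 11.85 for Dnajc19 (others 11.17 to 11.35). It also read 12.00 for Chchd1 (others 11.18 to 11.41) and 10.87 for Mtx1 (others 10.43 to 10.54). In each of these 5 genes the array lay on the side of the iPGC-1β arrays, and it is the wild-type array with the lowest enterocyte and the highest T cell marker mean. The part of these markers in its values was not tested. iPGC-1β replicate 1 read 8.93 for Chchd8 (others 8.50 to 8.59).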

How the results depend on the processing

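Over 24 alternatives, 11 to 18 of the tested genes rose and 0 fell. The share of all genes that rose also moved with the setting. It ran from 4.71% without a filter to 13.2% with a detection p under 0.01 on all 10 arrays. Of 670 recomputed changes of single genes, 627 kept their direction and side of the threshold, 5 lost the call, 15 gained it and 23 changed sign. The sign changes were in 8 genes. Of the 23, 0 were of a gene called in the main setting, and 0 were called in the alternative that changed the sign. Among these genes, Chchd1 and Tomm6 were called higher without wild-type replicate 5 and iPGC-1β replicate 3. Of the sign changes, 7 came with the enterocyte covariate: Grpel2 0.24, Chchd6 -0.21, Chchd1 -0.27, Chchd8 -0.13, Tomm34 -0.025, Tomm6 -0.54 and Tomm7 -0.52. Chchd5 was at -0.0067 without background correction, -0.040 with median centring, -0.0066 in the authors' values, -0.086 with array weights and -0.062 with the T cell covariate. With arrays left out, Chchd5 ranged from -0.13 to 0.16, Chchd6 from -0.063 to 0.19 and Tomm7 from -0.12 to 0.42. The calls of 9 genes held under every alternative that tested them: Timm44, Grpel1, Timm17a, Chchd4, Timm8a1, Immt, Chchd10, Mtx1 and Mtx2. Timm8a1 held only at the threshold with the enterocyte covariate (limma's adjusted p = 0.05 after rounding). Mtx2 did not enter the test with a detection p under 0.01 on all 10 arrays. Pmpcb and Chchd7 missed a 1.5-fold minimum, and Timm9, Timm10 and Dnajc19 were lost with the enterocyte covariate, which itself differs between the groups. The median change was 0.40 without background correction, which compresses dim probes by construction, and 0.29 without a filter, where genes not above background enter. It was 0.41 in the authors' processed values, and the cause was not tested. Pairs that passed numbered 5 without background correction and 5 in the authors' values, the additional ones being Pmpca minus Pmpcb and Mtx1 minus Mtx2 (cause not tested). Without wild-type replicate 5 and iPGC-1β replicate 3 they numbered 0, with a lowest adjusted p of 0.0857 for Grpel1 minus Grpel2 and Chchd4 minus Gfer, both at the lowest exact p that 4 against 4 arrays allow, 0.0286. Leaving out 1 array at a time gave 14 to 16 genes, 2 or 3 pairs and medians of 0.49 to 0.57. With 1 array left out, 8.06% to 10.1% of all tested genes rose. Of the other import genes 4 rose with the enterocyte covariate. No paired analysis was possible because the replicate numbers are accession order. A slide block was not run, as no slide is named. Signal over background limits the 9 untested genes, and Mtx2, Opa1 and Pmpca among the tested ones.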
